A study of Mus musculus with 6 samples.

Results

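p53, encoded by Trp53, and 9 genes that restrain it or answer to it were described in ventricles of mouse embryos at embryonic day (E) 9.5. The 10 genes were taken by symbol from the deposited expression table, in which all 10 were found among the 23284 genes listed. All 10, protein-coding genes each with a locus of its own in the table, had at least 1 FPKM (fragments of a transcript scaled by its length and by the mapped fragments of the library) in both groups, as did 11001 genes of the table, and 11606 genes reached that level in at least 1 group. WT embryos (n = 3) were of wild type genotype on the C57BL/6 strain. KD embryos (n = 3), of genotype Tbx5ua -/- on the same strain, derived from clonal C57BL/6 J ES cells with polyadenylation signals inserted into both alleles of Tbx5ua, the long non-coding RNA transcribed away from the Tbx5 promoter. Both groups were chimeras made by tetraploid complementation, in which the embryo proper comes from the ES cells, here WT or KD. KD embryos of the study came from 2 ES cell lines, and the labels do not say which line each sequenced embryo came from. The level of Tbx5ua is not analysed here, and the group labels stand unchecked by it.

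p53 is a transcription factor that is kept scarce in unstressed cells and accumulates after DNA damage, ribosomal stress or oncogene activity. It then switches on genes that halt the cell cycle, such as Cdkn1a, genes that trigger apoptosis, such as Bbc3 and Bax, and the genes of its own inhibitors, such as Mdm2, which closes a feedback loop. Most of this control acts on the stability of the protein, so the mRNA of Trp53 and the activity of p53 are separate quantities. Restraint of p53 by Mdm2 and Mdm4 is needed in the mouse embryo, where loss of either gene is lethal unless Trp53 is removed too.

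The table holds 1 FPKM value per group, in which the authors combined the 3 embryos, and no value of a single embryo. The test results of the authors that stand in the same table were not used here, and group values alone do not show the spread between embryos. No SD or p-value is therefore given, and no ratio below is claimed to exceed that spread. All levels given are these group values of the authors. Log2 ratios of KD over WT were computed from them on the scale of log2(FPKM + 0.1), on which the change of low genes is understated. Cuffdiff, the program behind the table, marked all 10 genes as having enough reads to compare, as it did for 12775 genes of the table. The table gives neither read counts nor library totals, so the depth of the libraries is unknown. The table summed to 859452 FPKM for WT against 877889 for KD. The median log2 ratio of the 11606 genes was 0.00. Ventricular cardiomyocyte markers were abundant in both groups, Myl2 at 10924 FPKM in WT against 12702 in KD. Of 7 such markers 0 differed by 1.2-fold or more, beside 15.6% of all genes at least 1.2-fold higher and 13.0% lower.

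p53 binds as a tetramer to a pair of 10-base motifs, the p53 decamer, each with a C and a G at fixed places around a short A and T core. The decamer consensus reads the same on both strands, so a single search covers both. RefSeq promoter windows of 300 bases (250 before the start of the transcript and 50 from it, build GRCm38.p6) were matched for 9 of the 10 genes by symbol and gave 13 windows, since Cdkn1a and Mdm4 have 2 starts there and Bbc3 has 3. Trp53inp1 is named only. The windows of Cdkn1a and Bbc3 are shown in full, because Cdkn1a is the classic p53 target of cell cycle arrest and Bbc3 had the only ratio of the 10 past 1.5-fold, and capitals mark the best match to a full p53 site, 2 decamers with no gap. The Cdkn1a window belongs to the upstream start on the plus strand, chr17:29090729-29091028, and the Bbc3 window to the first start on the plus strand, chr7:16309333-16309632.
Cdkn1a: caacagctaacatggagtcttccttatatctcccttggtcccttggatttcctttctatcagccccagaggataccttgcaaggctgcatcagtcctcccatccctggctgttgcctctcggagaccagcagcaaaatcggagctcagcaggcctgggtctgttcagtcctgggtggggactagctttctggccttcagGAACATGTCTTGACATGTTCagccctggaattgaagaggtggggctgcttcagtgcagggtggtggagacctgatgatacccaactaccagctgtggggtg
Bbc3: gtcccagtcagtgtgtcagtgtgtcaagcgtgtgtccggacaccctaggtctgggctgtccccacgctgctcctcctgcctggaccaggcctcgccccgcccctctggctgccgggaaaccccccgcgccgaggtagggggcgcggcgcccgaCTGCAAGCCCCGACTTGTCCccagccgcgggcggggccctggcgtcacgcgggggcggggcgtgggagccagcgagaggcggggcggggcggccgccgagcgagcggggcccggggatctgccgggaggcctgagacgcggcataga

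The Cdkn1a site begins 51 bases before the upstream start and 2841 bases before the downstream start, and differs from the full consensus at 1 of 20 positions. It also holds CATGNNNNNNCATG, a pair of p53 core letters at the spacing of a full site (a palindrome, hence searched on both strands at once, and overlapping the decamers), which 1 of the 13 windows held. The Bbc3 site begins 97 bases before the start and differs from the consensus at 3 of 20 positions, and no decamer in that window was an exact match. A second exact Cdkn1a decamer, left in lower case, begins 73 bases before the upstream start. Next to them stand the matches of 4 other genes, shown with 10 bases on either side and printed along the strand of the gene. Ccng1 (minus strand, chr11:40755452-40755491) has a full site with 1 mismatch beginning 195 bases before the start, and Trp53 itself (plus strand, chr11:69580274-69580313) has one with 3 mismatches at 75 bases. Mdm2 (minus strand, chr10:117710925-117710954) and Bax (minus strand, chr7:45467080-45467109) each hold a single exact decamer, beginning 186 and 201 bases before the start.
Ccng1: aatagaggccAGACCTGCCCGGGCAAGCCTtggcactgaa
Trp53: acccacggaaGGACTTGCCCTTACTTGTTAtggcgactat
Mdm2: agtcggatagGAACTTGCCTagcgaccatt
Bax: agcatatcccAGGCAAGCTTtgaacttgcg

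An exact decamer was present in 5 of the 13 windows, those of Bax, Ccng1, Cdkn1a, Mdm2 and Trp53, and in 8.36% of all 32851 promoter windows of the same length. A full site with at most 3 mismatches, the core C and G letters intact, was present in 4 of the 13 windows and in 1.38% of all windows. CATGNNNNNNCATG was present in 0.712% of all windows. A match describes letters, not binding, and the genes were assembled as known p53 targets. The windows of Mdm4, Phlda3 and Sesn2 held no decamer, which speaks only of these bases.

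Trp53 mRNA was abundant and near equal in both groups. Its gene, on the plus strand of chromosome 11 from 69580359 to 69591873 on GRCm38 (mm10), had 110.9 (WT) and 118.6 FPKM (KD). That is a log2 ratio of 0.10, and 33.6% of the 11606 genes, or 21.7% of those within 2-fold of its level, had a ratio at least as high. The level of Trp53 lay at percentile 90.9 of those genes in WT and 91.2 in KD. Wrap53, which starts on the opposite strand 1034 bases away, had 23.79 FPKM in the WT group and 23.85 in the KD group.

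The 2 inhibitors of p53 were both lower in KD. Mdm2, the ubiquitin ligase that marks p53 for degradation and is itself induced by p53, lies on the minus strand of chromosome 10 from 117688905 to 117710716. It had 28.7 FPKM in WT against 23.2 in KD, a log2 ratio of -0.31, or 1.24-fold lower. Mdm4, a relative of Mdm2 that binds p53 and blocks its activation domain, lies on the minus strand of chromosome 1 from 132989845 to 133025348. It had 8.04 (WT) and 6.19 FPKM (KD), a log2 ratio of -0.37, or 1.29-fold lower. Mdm2 stood above Mdm4 by a similar factor in both groups, 3.57 in WT and 3.74 in KD. Because Trp53 was slightly higher and Mdm2 lower, the FPKM of Trp53 over that of Mdm2 was 3.86 in WT and 5.12 in KD.

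Cdkn1a, which encodes the cell cycle inhibitor p21, was lower in KD by a similar amount. The gene lies on the plus strand of chromosome 17 from 29090986 to 29100722 and had 23.6 FPKM in the WT group and 18.6 in the KD group. The log2 ratio was -0.34, or 1.27-fold lower. AC167363.2, a gene annotated on the minus strand, overlaps an exon of Cdkn1a in GENCODE release M21, and Smart-Seq2 libraries do not mark the strand, so reads from the pair cannot be told apart. Ccng1, the p53 target cyclin G1 that works in the feedback on p53 through Mdm2, lies on the minus strand of chromosome 11 from 40748552 to 40755286. It had 71.5 FPKM in WT against 67.2 in KD, a log2 ratio of -0.09.

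Mdm2, Mdm4 and Cdkn1a were the 3 genes of the 10 that were at least 1.2-fold lower in KD. Of all 11606 genes, 13.0% were at least 1.2-fold lower and 15.6% at least 1.2-fold higher. A ratio as low as that of each gene was found in 9.86% of all genes for Mdm2, 7.25% for Mdm4 and 8.31% for Cdkn1a. Among genes within 2-fold of the gene's own level, the shares were 5.02%, 6.46% and 4.29% in the same order. No gene of the 10 was at least 1.5-fold lower, as were 3.10% of all genes.

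**Figure D1:**
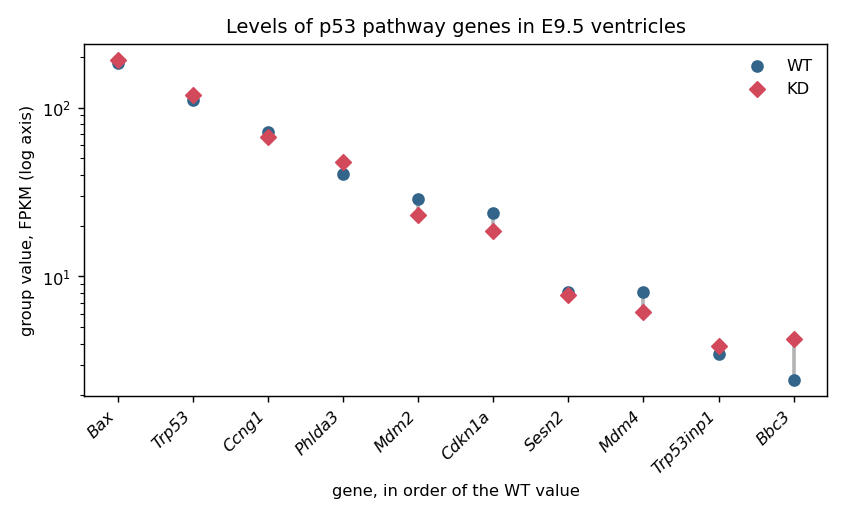
Group values in FPKM (log axis) of Trp53 and 9 p53 pathway genes, in order of the WT value, with circles for WT and diamonds for KD and 1 value per group of 3 embryos, so no error bar can be drawn. Bbc3 shows the widest gap between the groups, 2.44 (WT) and 4.29 FPKM (KD), and Mdm2, Cdkn1a and Mdm4 lie lower in KD.

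Of the apoptosis and stress genes, Bbc3 stood apart in the size of its ratio. Bbc3 encodes PUMA, a BH3-only protein that frees Bax and Bak to permeabilise the mitochondrial membrane, and lies on the plus strand of chromosome 7 from 16309583 to 16318334. It had 2.44 FPKM in the WT group and 4.29 in the KD group, a log2 ratio of 0.79, or 1.73-fold higher, the widest difference of the 10 genes. Bbc3 was the 1 gene of the 10 that was at least 1.5-fold higher in KD, against 4.48% of all genes. Its level is low, at percentile 18.2 in WT and 30.0 in KD, and ratios spread more widely at low levels. Among the 3662 genes with a mean of 1 to 5 FPKM, 8.06% were at least 1.5-fold higher and 5.79% at least 1.5-fold lower, and 2.73% of genes within 2-fold of the level of Bbc3 had a ratio as high as its own.

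Bax, the pore-forming effector that Bbc3 protein acts upon, was the highest of the 10 genes and differed little. It lies on the minus strand of chromosome 7 from 45461695 to 45466898 and had 183.9 FPKM in WT against 191.1 in KD, a log2 ratio of 0.06. Gm45808, a gene of the same strand, shares exon sequence with Bax in GENCODE release M21, so a part of these reads could belong to it. Trp53inp1, a stress-induced nuclear protein that promotes p53 activity, lies on the plus strand of chromosome 4 from 11156441 to 11174377 and had 3.48 (WT) and 3.88 FPKM (KD), a log2 ratio of 0.15. The FPKM of Bax was 75.3 times that of Bbc3 in WT and 44.5 times in KD.

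The last pair of genes acts on growth signalling. Sesn2, a sestrin that senses leucine and restrains mTORC1, lies on the minus strand of chromosome 4 from 132492807 to 132510456 and had 8.14 FPKM in the WT group and 7.82 in the KD group, a log2 ratio of -0.06. Phlda3, whose protein competes with Akt for membrane lipids, lies on the plus strand of chromosome 1 from 135766085 to 135769134. It had 40.5 FPKM in WT against 47.7 in KD, a log2 ratio of 0.24, or 1.18-fold higher. A ratio at least as high was found in 17.6% of all genes and in 8.77% of genes within 2-fold of its level.

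Read together, 5 of the 10 genes were above 0 and 5 below on the log2 scale, where 50.9% of all genes were above 0. Their median log2 ratio was -0.0015, beside 0.0049 for all genes. Of the 10 genes, 6 lay within 1.2-fold, as did 8288 of all 11606 genes. The 10 genes spanned a 75.3-fold range of FPKM in WT and a 49.2-fold range in KD. Their order by level was the same in both groups but for the last places, where Bbc3 stood below Trp53inp1 in WT and above it in KD. Without values of single embryos, neighbours such as Sesn2 and Mdm4 in WT (8.14 and 8.04 FPKM) cannot be called different.

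**Figure D2:**
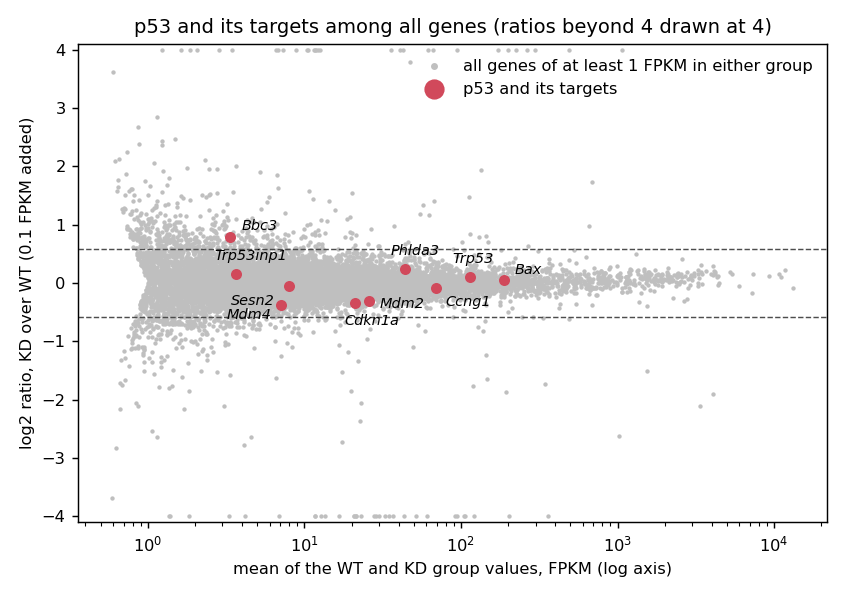
Log2 ratio of KD over WT (0.1 FPKM added to each value) against the mean of the group values in FPKM (log axis) for the 11606 genes with at least 1 FPKM in either group, in grey, with p53 and its targets in red and dashed lines at 1.5-fold. Bbc3 lies above the upper line at a low level where grey points scatter widely, and the other 9 genes lie between the lines.

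The wider p53 network was read from a list of 88 further genes in 6 roles, of which 87 were listed in the table and 77 had at least 1 FPKM in either group. At 1.5-fold, 3 of the 77 were higher and 4 lower in KD, beside 4.48% and 3.10% of all genes. At 1.2-fold, 10 were higher and 13 lower, beside 15.6% and 13.0%. The median log2 ratio of the 77 was -0.05.

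Regulators and partners of p53 stayed within 1.5-fold in all 12 measured cases, beside only 4.48% of all genes at least 1.5-fold higher and 3.10% lower. The ribosomal proteins Rpl11 and Rpl5, which bind Mdm2 when ribosome assembly fails (the locus of Rpl5 in the table is shared), had 2017 and 488.0 FPKM in WT and 2167 and 470.6 FPKM in KD. Npm1, a nucleolar chaperone that also touches this pathway, had 1485 (WT) and 1327 FPKM (KD). Trp73, a paralogue of Trp53, and Cdkn2a, whose Arf product inhibits Mdm2, were listed at 0 in both groups.

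All 6 damage-sensing kinases were below 0 on the log2 scale, where 49.1% of all genes were, with a median of -0.19. Chek1, the kinase that halts the cycle when replication stalls, had 16.6 FPKM in the WT group and 11.1 in the KD group, a log2 ratio of -0.58 that fell just short of 1.5-fold. Chek2 had 7.13 FPKM in WT against 6.75 in KD, and Hipk2, a kinase that phosphorylates p53, had 7.37 (WT) and 6.99 FPKM (KD). The remaining 3 kinases lay lower in level, and 2 of the 6 in all were at least 1.2-fold lower, beside 13.0% of all genes.

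Of the 9 measured cell cycle targets, 1 was at least 1.5-fold higher and 1 at least 1.5-fold lower, beside 4.48% and 3.10% of all genes and 8.06% and 5.79% of those with a mean of 1 to 5 FPKM, where both lie. Gadd45a, a growth arrest gene induced by DNA damage, had 1.23 FPKM in the WT group and 2.22 in the KD group, a log2 ratio of 0.80, and shares its locus in the table with another gene, which makes its value less certain. Rprm, which encodes the arrest protein Reprimo, had 1.32 FPKM in WT against 0.84 in KD, a log2 ratio of -0.61. Rprm reached 1 FPKM in WT only, so the filter kept it through the group where it was higher. The most abundant of the role were Psrc1 (47.0 FPKM in WT, 41.9 FPKM in KD), Plk2 (38.2 and 39.8 FPKM) and Ckap2 (31.9 and 27.0 FPKM).

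Among 20 apoptosis targets and effectors, 1 was higher and 1 lower by 1.5-fold, shares near the 4.48% and 3.10% of all genes. The lower one lies at a mean of 1 to 5 FPKM, where 5.79% of genes were at least 1.5-fold lower. Pmaip1, which encodes NOXA, the other BH3-only protein that p53 is best known to induce, had 3.14 (WT) and 1.39 FPKM (KD), a log2 ratio of -1.13 and the opposite sign to Bbc3. The FPKM of Bbc3 over that of Pmaip1 was thus 0.777 in WT and 3.10 in KD, while both genes were low in both groups. Trp53i11, a p53-induced gene, had 4.53 FPKM in the WT group and 7.27 in the KD group, a log2 ratio of 0.67. Cycs, the cytochrome c gene, had 385.7 FPKM in WT against 372.4 in KD, Siva1 had 199.9 and 179.3 FPKM, and Aen, an apoptosis-enhancing nuclease gene that p53 induces, had 34.5 and 30.1 FPKM. The FPKM of Bax over that of its antagonist Bcl2l1 was 7.08 in WT and 7.20 in KD, over Bcl2 21.5 and 26.2, and over Mcl1 7.40 and 9.35.

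**Figure D3:**
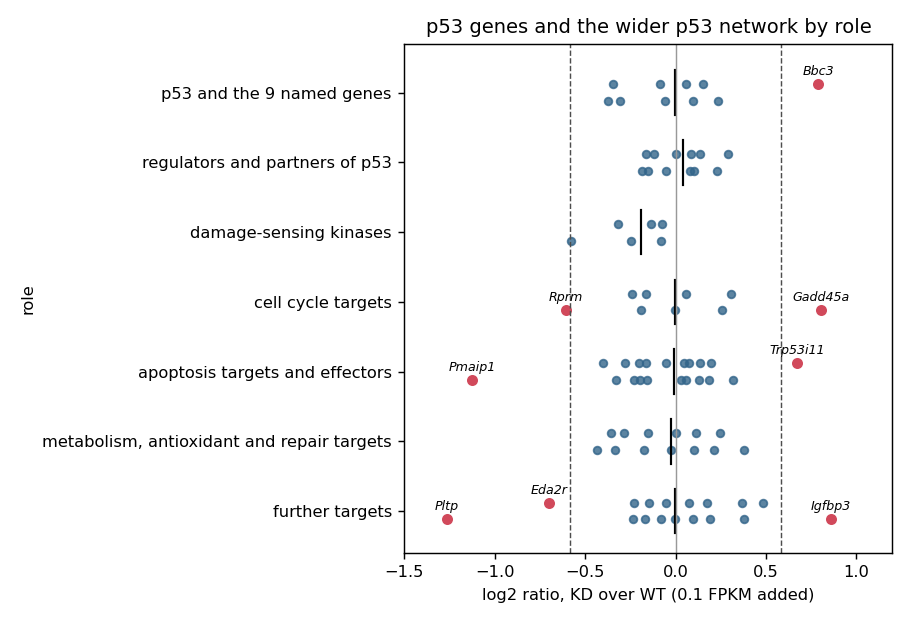
Log2 ratio of KD over WT (0.1 FPKM added) of p53 and the 9 named genes in the top row and of the 77 measured genes of the wider p53 network by role, with 1 point per gene, a black bar at the median of each row and dashed lines at 1.5-fold. Points past 1.5-fold, in red with their names, lie on both sides, 4 higher with Bbc3 included and 4 lower, and all 6 damage-sensing kinases lie left of 0.

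Metabolism, antioxidant and repair targets, 13 of them measured, all lay within 1.5-fold, beside only 4.48% of all genes at least 1.5-fold higher and 3.10% lower. Gpx1, a glutathione peroxidase, had 606.2 (WT) and 655.2 FPKM (KD), Sco2, an assembly factor of the respiratory chain whose locus in the table is shared, had 33.1 and 29.2 FPKM, and Fuca1 had 13.3 and 15.8 FPKM. Sesn1, a relative of Sesn2, had 7.93 FPKM in the WT group and 7.95 in the KD group. Of the 17 further targets measured, 1 was at least 1.5-fold higher in KD and 2 at least 1.5-fold lower, beside the same shares of all genes. The 2 lower ones lie at a mean of 1 to 5 FPKM, where 5.79% of genes were at least 1.5-fold lower. Igfbp3, an insulin-like growth factor binding protein, had 9.55 FPKM in WT against 17.4 in KD, a log2 ratio of 0.86. Eda2r, a receptor of the TNF receptor family induced by p53, had 3.97 (WT) and 2.41 FPKM (KD), a log2 ratio of -0.70. Pltp, a lipid transfer protein gene whose locus in the table is shared, had 1.75 FPKM in the WT group and 0.67 in the KD group, a log2 ratio of -1.27. Pltp reached 1 FPKM in WT only, so the filter kept it through the group where it was higher. Rps27l, a ribosomal protein gene that p53 induces, was the highest of the role and had 1368 FPKM in WT against 1364 in KD, followed by Ak1 (169.5 and 150.8 FPKM) and Ccnd1 (46.7 and 60.6 FPKM), the last with a shared locus.

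Full p53 sites with at most 2 mismatches were found in the promoter windows of Cdkn1a and Ccng1 and, in the wider network, of Gtse1, Rps27l, Ckap2 and Trp73, 4 of the 93 windows (4.3%) that were matched for 71 of its genes. The 5 of these 6 genes with a level in the table lay between a log2 ratio of -0.34 for Cdkn1a and -0.0037 for Rps27l. They were thus below 0, as were 49.1% of all genes, though Rps27l and Gtse1 (-0.005) lay very near 0. Of the 10 genes, Bbc3 (log2 ratio 0.79) and Trp53 (0.10), whose sites have 3 mismatches, were above 0. In the wider network 9 genes had a site with at most 3 mismatches, 4 of them with at most 2. The ratios of its genes with 3 mismatches were not compared, so no split by mismatches is drawn. Of all windows, 0.326% held a full site with at most 2 mismatches and 1.38% one with at most 3.

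Among markers of other cells that reached 1 FPKM in either group, only epicardial and atrial ones differed by 1.5-fold or more. All 6 epicardial markers that reached 1 FPKM in either group were higher in KD (50.9% of all genes were above 0 on the log2 scale), 5 of them by 1.5-fold or more (4.48% of all genes), and the summed FPKM of the 7 on the list was 47.1 in WT and 96.0 in KD. Wt1, a transcription factor of the epicardium, had 13.8 and 19.2 FPKM, Tcf21 11.9 and 25.5 FPKM, Tbx18 3.46 and 6.56 FPKM, Upk3b 7.80 and 20.7 FPKM, Upk1b 9.17 and 22.1 FPKM, and Aldh1a2 0.87 and 1.74 FPKM, while Msln had 0.05 and 0.07 FPKM. Aldh1a2 reached 1 FPKM in KD only, so the filter kept it through the group where it was higher. The atrial markers Nr2f1, Nr2f2 and Vsnl1 were also at least 1.5-fold higher, beside the same 4.48% and 8.06% of genes with a mean of 1 to 5 FPKM. They had 0.55 and 1.07, 2.01 and 4.15, and 0.56 and 1.14 FPKM in WT and KD, with the loci of Nr2f1 and Nr2f2 shared in the table. Nr2f1 and Vsnl1 reached 1 FPKM in KD only, so the filter kept them through the group where they were higher. The summed level of the atrial list was 3.12 (WT) and 6.36 FPKM (KD), and Sln, a defining atrial gene, was listed at 0 in both groups. Of 6 endocardial markers 0 differed by 1.5-fold, with summed levels of 117.8 and 127.8 FPKM, and the same held for 6 erythroid markers, with 11448 and 11525 FPKM. At 1.2-fold, 1 endocardial marker was higher, and 2 erythroid markers were higher and 1 lower, beside 15.6% and 13.0% of all genes. Hepatic and yolk sac markers were all under 1 FPKM in both groups, with Alb and Fgb listed at 0 and a summed level of 0.607 FPKM in WT against 1.38 in KD, and the 4 pluripotent markers summed to 1.89 and 1.52 FPKM. The part of these cell types in the values of Bbc3, Mdm2, Mdm4 and Cdkn1a was not tested. In such bulk tissue, fewer cells of a type and less RNA per cell cannot be told apart.

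**Figure D4:**
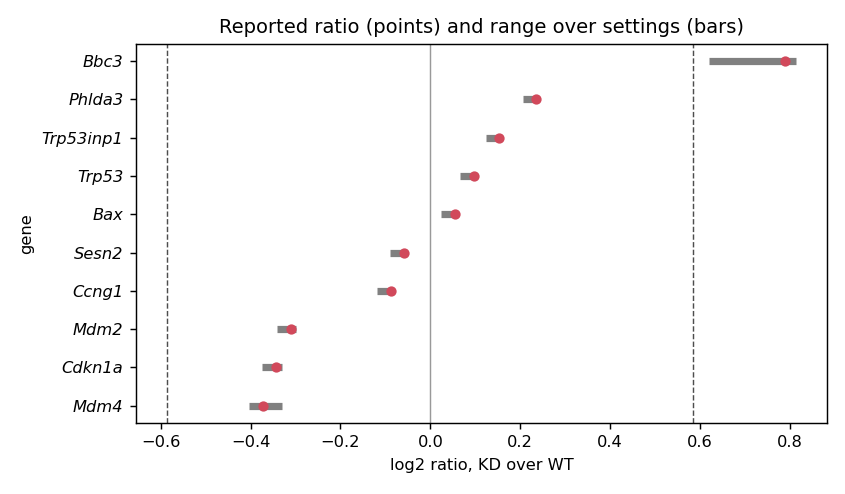
Log2 ratio of KD over WT of each of the 10 genes as reported (red points) and its lowest and highest value over pseudocounts, filters and scalings (grey bars), with dashed lines at 1.5-fold. Bbc3 ranges from 0.62 to 0.81 and keeps to the right of the upper line over the settings that keep it. Bbc3 and Trp53inp1 are not kept with at least 5 FPKM in either group. No gene crosses 0, but filters and pseudocounts cannot change the sign of a ratio, so only the scalings could.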

How the data were processed

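Total RNA (10 ng) from ventricles of 3 WT and 3 KD embryos at E9.5 was made into Smart-Seq2 libraries, with 12 cycles of preamplification and 9 of enrichment PCR. The submitters' processing notes name TopHat, Bowtie2, Cuffdiff and build mm10, with no versions. The authors deposited 1 Cuffdiff table with an FPKM value per group. It also holds their own fold changes, test scores, p-values and q-values, which were not used. Groups came from the sample titles, and the column pair named WT and KO was read as WT and KD. The number of unused columns of single samples was 0.

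Here log2 ratios were computed with 0.1 FPKM added, over genes with at least 1 FPKM in either group, and genes past 1.5-fold and 1.2-fold were counted. With 1 value per group no test was made. Starts in the table count from 0 and are given with 1 added: among 20824 genes matched by symbol to GENCODE M21 (GRCm38), 6286 starts agreed that way and 681 without. The named genes were the 10 genes, then, of the wider list, every gene past 1.5-fold, the 3 highest in WT per role and those at 0 in both groups. Others, namely Wrap53, Sesn1, Bcl2l1, Bcl2, Mcl1 and Gtse1, were added with their values known. The genes and lists were chosen with earlier results of these data known. Counting was tested on simulated data. Python 3.11.15, NumPy 2.4.6, pandas 2.3.3 and Matplotlib 3.10.9 were used.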

Additional observations from a re-analysis of the deposited data

How the results depend on the processing

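No paired analysis was possible because each group has a single deposited value, and for the same reason leaving out each replicate was not run. Over the 11 planned settings besides the reported one, Bbc3 was the 1 gene of the 10 past the threshold except in 3: none passed with at least 5 FPKM in either group, where Bbc3 is not kept, none passed at 2-fold (0 genes), and 4 passed at 1.2-fold. The median log2 ratio of the 10 genes was -0.0734 with at least 5 FPKM in either group, -0.0064 less the median of all genes and -0.032 with both groups rescaled to the same sum. The 7 genes of the wider network past 1.5-fold (3 higher, 4 lower) became 3 with a pseudocount of 1 (1 higher, 2 lower, beside 2.2% and 1.46% of all genes), 11 with no filter (7 and 4, beside 9.39% and 6.8%), 2 with at least 5 FPKM in either group (2 and 0, beside 2.09% and 1.41%), 23 at 1.2-fold (10 and 13, beside 15.6% and 13.0%) and 2 at 2-fold (0 and 2, beside 1.43% and 1.06%). There were 5 with at least 1 FPKM in both groups (3 and 2, without Rprm and Pltp, beside 2.75% and 1.84%) and 5 without shared loci (2 and 3, without Gadd45a and Pltp, beside 4.26% and 2.66%). The median of the wider network, -0.05 as reported, became -0.0169 with no filter, -0.0162 with at least 1 FPKM in both groups, -0.0007 with at least 5 FPKM in either group, -0.0556 less the median of all genes and -0.0814 with both groups rescaled to the same sum, where Chek1 also passed 1.5-fold. A count over genes with a mean of 1 to 5 FPKM, chosen after seeing the data, gave 1 of 2 of the 10 genes (higher) and 5 of 25 of the wider network (1 higher, 4 lower), beside 8.06% higher and 5.79% lower of all genes at that level. The depth is unknown, which limits what can be said of ratios of low genes such as Bbc3 and Pmaip1.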
